A study of Mus musculus with 12 samples.

Results

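The genes described here form the ATF4 amino acid program, and they were measured in mouse embryonic fibroblasts (MEFs), connective tissue cells grown from mouse embryos. They were chosen by name, 39 gene symbols in all: transcription factors and regulators of the integrated stress response, enzymes that make serine, asparagine, proline and one-carbon units, amino acid transporters, and 9 cytosolic tRNA synthetases. All 39 symbols were found among the 54532 genes of the expression table, on 40 rows. Ddit3 has a further row of 105 bases that overlaps the main gene and is listed at 0 in every library. A gene had to reach 1 FPKM (fragments per length of gene and depth of library) in at least 3 of 12 libraries to be tested, and 37 of the 39 genes did. Vldlr and Stc2 did not: Vldlr, a lipoprotein receptor gene, lay between 0.587 and 1.07 FPKM in CHIP-KO libraries, against 0.196 to 0.403 FPKM in WT libraries, and Stc2, which encodes a secreted glycoprotein, between 0.0562 and 0.373 FPKM in all 12.

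Poly(A) RNA was sequenced from 4 groups of 3 libraries: CHIP-KO cells held for 1 hour at 43 °C, unheated CHIP-KO cells, WT cells held for 1 hour at 43 °C, and unheated WT cells. CHIP is a chaperone-associated ubiquitin ligase encoded by Stub1. All cells are labelled as the cell line MEF. The labels say neither how CHIP was deleted, nor whether the CHIP-KO cells are 1 clone, nor whether each library had its own culture, so the p-values measure the spread between these libraries, which may be technical.

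Fragments recovered from the table numbered 19953642 to 26954112 in CHIP-KO libraries and 15591924 to 20098901 in WT libraries. Stub1 stood at 0.722 to 1.17 FPKM in CHIP-KO libraries, against 53.8 to 64.1 FPKM in WT libraries. The heat shock gene Hspa1a stood at 927 to 1890.3 FPKM in heated libraries of both genotypes, against 1.78 to 3.54 FPKM in unheated ones. Of 9 fibroblast markers, 9 averaged at least 1 FPKM in both CHIP-KO groups and 8 in both WT groups. The exception was Thy1, at 0.0259 FPKM in heated and 0.00524 FPKM in unheated WT cells. Levels of other markers also differed between genotypes. Without heat, Col1a2 averaged 517 FPKM in CHIP-KO and 35.6 FPKM in WT cells, and Pdgfra 19.1 and 1.00149 FPKM. Only S100a4 (6.68 against 17.8 FPKM) and Vim (492 against 599 FPKM) were lower in CHIP-KO cells without heat. CHIP loss and other differences between the WT and CHIP-KO cells were not separated, and their part in the genotype comparisons was not tested. Replicate 1 had the lowest library weight of its group in unheated WT, heated WT and heated CHIP-KO cells, in a fit that weights libraries by their agreement with their group, and calls among the named genes that were lost without it are stated beside those genes.

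In the integrated stress response, kinases that sense amino acid shortage, misfolded protein in the endoplasmic reticulum, viral RNA or heme shortage phosphorylate the initiation factor eIF2. General translation then slows, while the mRNA of the transcription factor ATF4 is translated more, so ATF4 protein can change with little change in its mRNA. ATF4 pairs with C/EBP proteins and other leucine zipper factors on composite C/EBP-ATF elements and activates genes for amino acid synthesis, amino acid uptake and tRNA charging, together with regulators such as CHOP (Ddit3), TRIB3 and GADD34 (Ppp1r15a). In fibroblasts some of these genes also respond to growth signals through mTORC1.

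The composite element was looked for in promoter windows from RefSeq on GRCm38.p6, which run from 250 bases before to 50 bases after each start site. The letters searched were TGATGNAA on both strands. Windows were found for 33 of the 39 genes, and 12 of the 33 (36.4%) held the element, against 1219 of 27025 genes (4.51%) in all windows. It was in 5 of 7 tRNA synthetase genes with a window, 3 of 10 enzyme genes, 3 of 7 feedback and stress regulators, 1 of 6 transcription factors and 0 of 3 transporters. The narrower form TGATGCAA was in 8 of 33 (24.2%), against 279 of 27025 genes (1.03%). Of the 20 genes with a window that fell with heat in WT cells, 9 held the element, as did 0 of the 5 that rose and 2 of the 6 tested ones that were not called. A match is a description of these letters and no test was made of these shares. Elements outside these windows were not looked for, so a gene without a match here may hold one elsewhere. The sites of 7 genes that fell with heat in WT cells are given in the direction of transcription, 30 bases each with the element in capitals. They show how the letters vary around the shared core.
Asns, chr6:7693214-7693243, minus strand: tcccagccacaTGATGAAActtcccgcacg
Chac1, chr2:119351038-119351067, plus strand: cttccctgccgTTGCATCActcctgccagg
Trib3, chr2:152344028-152344057, minus strand: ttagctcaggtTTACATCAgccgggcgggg
Gars, chr6:55037960-55037989, plus strand: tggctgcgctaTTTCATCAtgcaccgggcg
Iars, chr13:49682126-49682155, plus strand: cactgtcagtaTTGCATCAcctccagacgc
Tars, chr15:11399655-11399684, minus strand: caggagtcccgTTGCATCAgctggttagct
Yars, chr4:129189895-129189924, plus strand: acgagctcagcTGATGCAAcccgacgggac
The element began 23 bases before the start site in Asns, 30 before it in Gars, 15 before it in Tars and 193 before it in Chac1. In Trib3, Iars and Yars it began 14, 7 and 3 bases after the start site.

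The first question was how heat changed the program in each genotype. In heated WT cells most of its amino acid genes fell, 10 enzymes to between 17.9% and 70.5% of the unheated level and 9 tRNA synthetases to between 39.6% and 68.8%, while a small set of regulators rose. In heated CHIP-KO cells 0 of the 20 enzymes and tRNA synthetases were called on the deposited FPKM scale, though all 20 were called lower when every library was given the same summed FPKM and 1 to 4 of them were called under 4 other alternatives, and the regulators Cebpb, Ppp1r15a and Ddit4 rose there too. Tests were made with limma on log2(FPKM + 1) over all 13023 tested genes, two-sided, with a Benjamini-Hochberg adjusted p under 0.05 as the threshold. All changes below are on that scale, which understates the change of low genes. In heated WT cells 24 of the 37 genes fell and 6 rose, where 30.5% of all tested genes fell, 28.1% rose and 58.7% did either. In heated CHIP-KO cells 4 fell and 7 rose, where 11.4% of all tested genes fell, 8.65% rose and 20.0% did either. Heated and unheated libraries did not overlap for 17 of the 37 genes in CHIP-KO cells, where 48.7% of all tested genes did not, and for 31 in WT cells, where 60.4% did not. The median log2 change of the 37 genes was -0.024 in CHIP-KO cells and -0.91 in WT cells, and that of all tested genes was -0.0018 and -0.016. Of the 24 genes that fell in WT cells, 3 also fell in CHIP-KO cells (Atf5, Trib3 and Slc7a1), 0 rose and 21 (87.5%) were not called there. Of the 3976 tested genes that fell in WT cells, 876 also fell in CHIP-KO cells, 115 rose and 2985 (75.1%) were not called there. When every library was given the same summed FPKM, the CHIP-KO counts became 26 lower and 3 higher, where 62.6% of all tested genes were lower and 4.35% higher. The median over all tested genes shifted by -0.29 under it, and 1 feature of 57 bases, Gm23935, held 12.4% to 17.0% of the summed FPKM in heated and 2.52% to 4.67% in unheated libraries. With limma's voom on the recovered fragments, 8 were lower and 6 higher. Of the calls over all tested genes, 23.1% were then higher, against 43.2% in the main fit, and the median over all tested genes shifted by -0.092. The CHIP-KO count of 11 called genes was 7 without unheated replicate 1, 6 without unheated replicate 2 and 6 without heated replicate 1 of CHIP-KO. In bulk RNA, fewer cells of a type and less RNA per cell cannot be told apart.

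**Figure D1:**
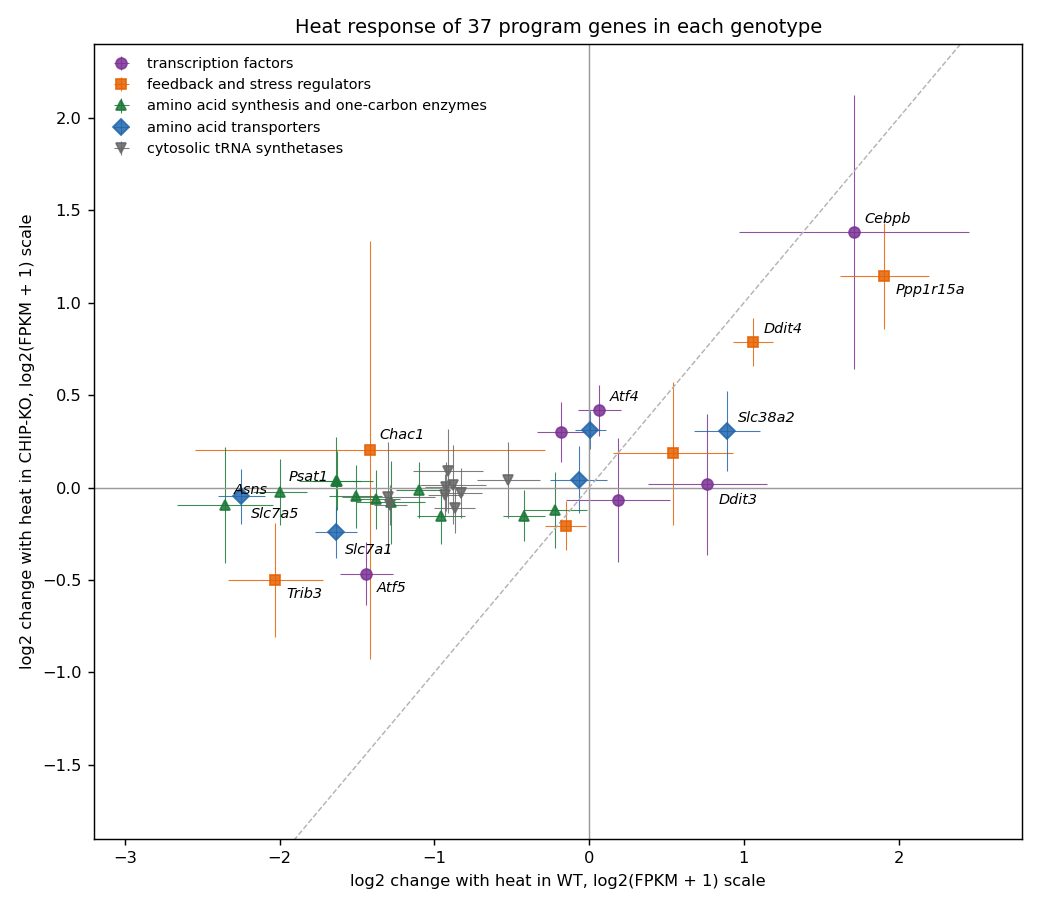
Log2 change with heat in CHIP-KO cells (y axis) against that in WT cells (x axis) for the 37 tested genes, on the log2(FPKM + 1) scale, with 95% intervals from limma and the diagonal of equal change dashed. Enzymes and tRNA synthetases lie left of 0 on the x axis and between -0.15 and 0.091 on the y axis on the deposited FPKM scale (below 0 with the same summed FPKM in every library), and Cebpb, Ppp1r15a and Ddit4 lie above 0 on both.

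Summed levels of cell type markers also differed between heated and unheated libraries. The summed level of the 4 mesothelial markers was 31.1 to 38.1 FPKM in heated CHIP-KO, 27.7 to 31.9 FPKM in unheated CHIP-KO, 5.40 to 6.05 FPKM in heated WT and 29.8 to 30.5 FPKM in unheated WT libraries. Msln made up nearly all of it, and Wt1 and Lrrn4 were listed at 0 in every library. The 9 fibroblast markers summed to 3878 to 4111 FPKM in heated and 3362 to 3549 FPKM in unheated CHIP-KO libraries, and to 2621 to 2922 FPKM in heated and 1639 to 1985 FPKM in unheated WT libraries. Of 5 immune markers only Cd68 averaged at least 1 FPKM and Adgre1 was listed at 0, and their sum was 8.55 to 10.8 FPKM in heated and 3.94 to 4.61 FPKM in unheated CHIP-KO libraries, and 13.4 to 15.8 FPKM in heated and 2.00148 to 3.41 FPKM in unheated WT libraries. The part of these shifts in the changes of the program was not tested.

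Atf4 itself rose with heat in CHIP-KO cells and was not called in WT cells. In CHIP-KO cells, Atf4 had 137, 127 and 127 FPKM in heated CHIP-KO cells, against 96.7, 96.5 and 99.2 FPKM in unheated CHIP-KO cells, and each heated library was above each unheated one. In WT cells, Atf4 had 123, 128 and 114 FPKM in heated WT cells, against 125, 112 and 111 FPKM in unheated WT cells, and the groups overlapped. The log2 change with heat was 0.42 in CHIP-KO cells (SE 0.0630, limma adjusted p = 0.00122) and 0.065 in WT cells (SE 0.0630, limma adjusted p = 0.404). With the same summed FPKM in every library, the CHIP-KO rise was no longer called and the WT change turned to -0.17 (limma adjusted p = 0.0273).

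Its relative Atf5, whose mRNA is also translated under eIF2 phosphorylation, went the other way from Atf4 in CHIP-KO cells. Atf5 stood at 30.9, 31.8 and 31.4 FPKM in heated CHIP-KO cells, against 39.6, 44.4 and 47.4 FPKM in unheated CHIP-KO cells. The WT libraries of Atf5 had 8.74, 10.5 and 9.63 FPKM in heated WT cells, against 29.8, 27.1 and 26.3 FPKM in unheated WT cells. The groups did not overlap in either genotype. Atf5 fell by 1.44 on the log2 scale in WT cells (limma adjusted p = 1.13e-07) and by 0.46 in CHIP-KO cells (limma adjusted p = 0.00216). The change with heat differed between genotypes by a log2 value of 0.97 (SE 0.11, limma adjusted p = 6.79e-05).

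Ddit3, which encodes CHOP, a C/EBP-related factor of late stress responses, was already higher in unheated CHIP-KO cells than in unheated WT cells. Ddit3 stood at 30.8, 21.3 and 21.6 FPKM in heated CHIP-KO cells, against 24.7, 23.9 and 23.1 FPKM in unheated CHIP-KO cells. WT libraries had 28.9, 21.7 and 20.1 FPKM in heated WT cells, against 10.6, 13.8 and 16.1 FPKM in unheated WT cells. Heated and unheated libraries overlapped in CHIP-KO cells and were apart in WT cells, where Ddit3 rose 1.70-fold (limma adjusted p = 0.00286). Cebpb, a C/EBP partner of ATF4, rose 2.61-fold with heat in CHIP-KO cells (limma adjusted p = 0.0152) and 3.27-fold in WT cells (limma adjusted p = 0.00117). Cebpb had 171, 92.2 and 87.6 FPKM in heated CHIP-KO cells, against 43.7, 40.4 and 42.1 FPKM in unheated CHIP-KO cells. In WT libraries, Cebpb stood at 195, 127 and 96.8 FPKM in heated WT cells, against 66.1, 33.4 and 29.3 FPKM in unheated WT cells. Replicate 1 was the highest Cebpb library of its group in all 4 groups. The CHIP-KO rise of Cebpb was not called without unheated replicate 2 or without heated replicate 1 of CHIP-KO. Cebpg, a smaller C/EBP partner, was not called in any of the 5 comparisons. Nupr1, a small stress-induced chromatin protein gene, rose with heat in CHIP-KO cells at a log2 change of 0.30 and stood at -0.18 in WT cells (limma adjusted p = 0.0535). The CHIP-KO call of Nupr1 was lost without unheated replicate 3 or heated replicate 1 of CHIP-KO, and with the same summed FPKM in every library. Atf5 and Cebpb overlap Nup62 and Tmem189 on the opposite strand, and the labels do not say whether counting used strand.

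**Figure D2:**
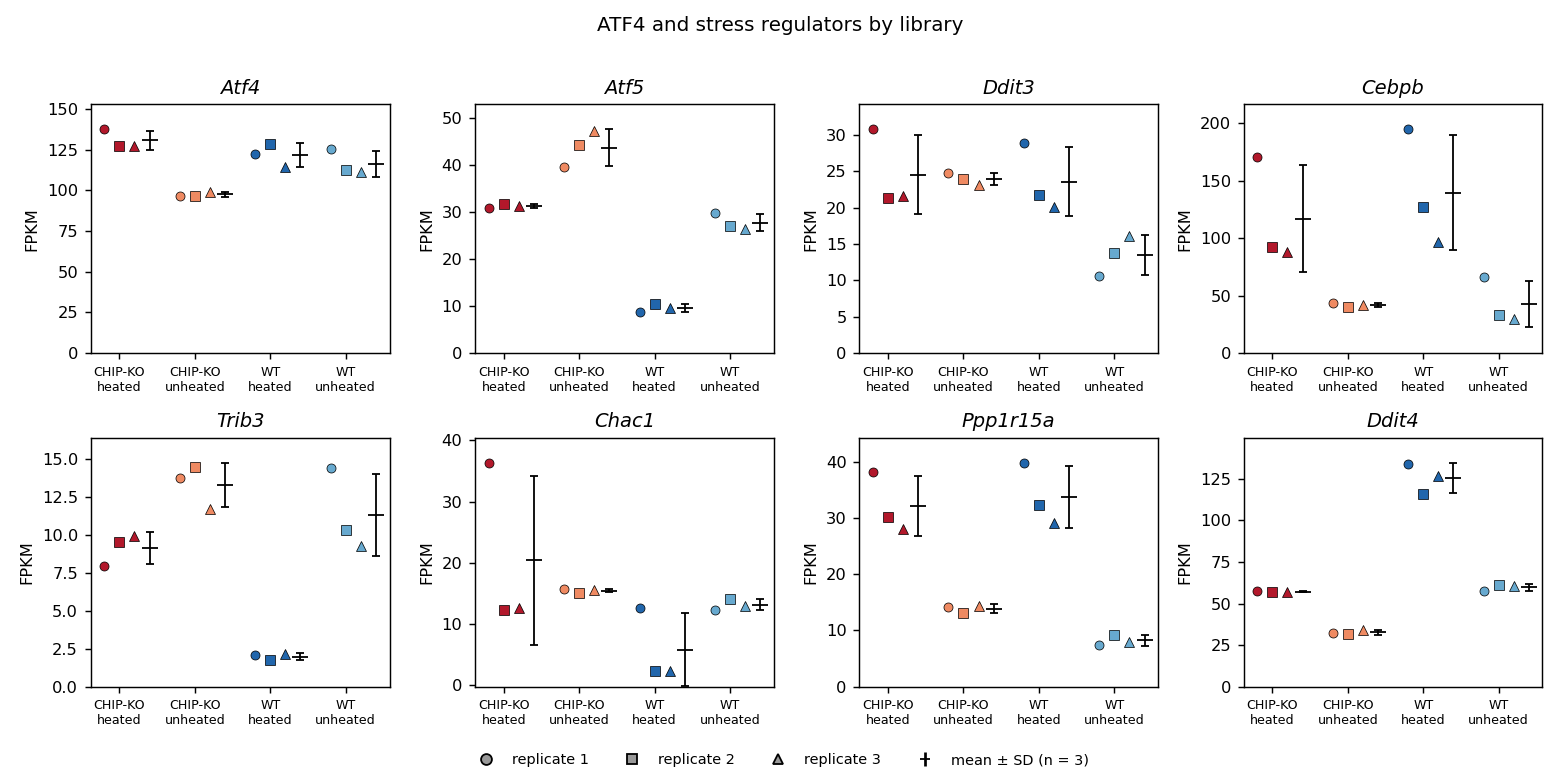
FPKM of 8 regulators in each library (points, shape by replicate) with mean ± SD of 3 libraries (black), by group on the x axis. Atf5 and Trib3 are lowest in heated WT cells, Cebpb and Ppp1r15a are higher in heated than in unheated libraries of both genotypes, and Chac1 in replicate 1 lies far above the other libraries of its own group in both heated groups.

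Trib3 encodes a pseudokinase that restrains ATF4 and AKT signalling, and it fell with heat in WT cells. Trib3 had 7.98, 9.55 and 9.91 FPKM in heated CHIP-KO cells, against 13.7, 14.5 and 11.7 FPKM in unheated CHIP-KO cells. WT libraries gave Trib3 values of 2.07, 1.75 and 2.14 FPKM in heated WT cells, against 14.4, 10.3 and 9.29 FPKM in unheated WT cells. The heated WT level was 17.5% of the unheated one, and the heated CHIP-KO level 68.6%. The CHIP-KO call of Trib3 (limma adjusted p = 0.0289) was lost without replicate 1 or 2 of either CHIP-KO group. The difference between these changes passed the test (log2 1.53, SE 0.20, limma adjusted p = 1.69e-04). Chac1, an ATF4 and CHOP target that degrades glutathione, depended on replicate 1. Chac1 stood at 36.4, 12.3 and 12.6 FPKM in heated CHIP-KO cells, against 15.6, 15.1 and 15.5 FPKM in unheated CHIP-KO cells. Heated WT libraries were split in the same way, with 12.6, 2.24 and 2.34 FPKM in heated WT cells, against 12.3, 14.1 and 12.9 FPKM in unheated WT cells. Its fall in WT cells was called with all libraries (log2 -1.42, limma adjusted p = 0.0336) and was larger without both WT replicates 1 (log2 -2.14, limma adjusted p = 0.00180). Leaving out any 1 unheated WT library, or heated WT replicate 2 or 3, ended the call (limma adjusted p from 0.0642 to 0.124). Without replicate 1 of every group, a setting chosen after the data were seen, Chac1 fell in CHIP-KO cells too, by 0.28 on the log2 scale (limma adjusted p = 0.0104).

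GADD34, encoded by Ppp1r15a, brings a phosphatase to eIF2 and ends the response, and its gene rose in both genotypes. Ppp1r15a had 38.2, 30.2 and 28.1 FPKM in heated CHIP-KO cells, against 14.3, 13.1 and 14.4 FPKM in unheated CHIP-KO cells. WT libraries of Ppp1r15a had 39.9, 32.3 and 29.1 FPKM in heated WT cells, against 7.48, 9.27 and 7.92 FPKM in unheated WT cells. The groups were apart in both, with rises of 2.21-fold in CHIP-KO cells (limma adjusted p = 2.54e-04) and 3.75-fold in WT cells (limma adjusted p = 5.87e-07). Its constitutive relative Ppp1r15b was called in WT cells only with certain libraries present. It changed by a log2 value of 0.19 in CHIP-KO cells (limma adjusted p = 0.502) and 0.54 in WT cells (limma adjusted p = 0.0208), and the WT call was lost without unheated replicate 2 or 3 or heated replicate 1. Ddit4, also called REDD1, restrains mTORC1. Ddit4 had 57.6, 56.9 and 57.02 FPKM in heated CHIP-KO cells, against 32.4, 31.5 and 34.3 FPKM in unheated CHIP-KO cells. In WT cells, Ddit4 stood at 134, 116 and 127 FPKM in heated WT cells, against 57.5, 61.1 and 60.7 FPKM in unheated WT cells, so heated WT libraries were the highest of all. It rose 1.73-fold in CHIP-KO cells (limma adjusted p = 1.26e-05) and 2.08-fold in WT cells (limma adjusted p = 1.31e-07). Sesn2, another brake on mTORC1, moved by a log2 value of -0.21 in CHIP-KO cells (limma adjusted p = 0.0356) and -0.15 in WT cells (limma adjusted p = 0.0509). The CHIP-KO call of Sesn2 was lost in 5 of the 12 fits that left out 1 library (each unheated CHIP-KO library, and heated replicates 2 and 3), and the WT change was called under several alternatives.

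The 11 enzymes of amino acid synthesis and one-carbon metabolism fell with heat in WT cells, with 1 exception. In heated CHIP-KO cells 0 of 11 were called (limma adjusted p at least 0.111) and the changes lay between -0.15 and 0.037, with all 11 of the 95% intervals inside ±0.5. With the same summed FPKM in every library, all 11 were called lower in heated CHIP-KO cells, where 62.6% of all tested genes were. Aldh18a1 and Pycr1 were also called lower with voom, with library weights and without both WT replicates 1, as was Shmt2 with quantile normalization. In heated WT cells 10 of 11 fell and 0 rose, with log2 changes between -2.35 and -0.22. The heated level was 88.9% to 102.7% of the unheated one in CHIP-KO cells and 17.9% to 85.3% in WT cells. Asns, asparagine synthetase, is a classical ATF4 target. Asns had 35.5, 34.6 and 37.97 FPKM in heated CHIP-KO cells, against 39.1, 37.9 and 38.4 FPKM in unheated CHIP-KO cells. WT libraries of Asns stood at 7.41, 10.8 and 8.04 FPKM in heated WT cells, against 60.3, 45.9 and 40.5 FPKM in unheated WT cells. It fell 5.11-fold in WT cells (limma adjusted p = 2.50e-07), where the groups were apart, and in CHIP-KO cells the groups overlapped.

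Serine is made by Phgdh, Psat1 and Psph in turn. Phgdh, the first enzyme, had 102, 108 and 109 FPKM in heated CHIP-KO cells, against 107, 99.2 and 106 FPKM in unheated CHIP-KO cells. In WT cells, Phgdh had 47.1, 56.6 and 51.1 FPKM in heated WT cells, against 197, 154 and 141 FPKM in unheated WT cells. The WT groups were far apart and the CHIP-KO groups overlapped. Psat1, the second, had 50.9, 52.3 and 53.4 FPKM in heated CHIP-KO cells, against 53.7, 52.4 and 53.1 FPKM in unheated CHIP-KO cells. In WT cells, Psat1 stood at 23.4, 30.001 and 26.02 FPKM in heated WT cells, against 116, 109.8 and 100.2 FPKM in unheated WT cells. All 6 CHIP-KO libraries of Psat1 lay between the heated and the unheated WT libraries. Psph, the last step, had 10.9, 11.4 and 11.7 FPKM in heated CHIP-KO cells, against 12.6, 12.1 and 10.7 FPKM in unheated CHIP-KO cells. WT values of Psph were 4.61, 5.42 and 5.07 FPKM in heated WT cells, against 17.6, 16.1 and 14.8 FPKM in unheated WT cells. With heat in WT cells, these genes changed by log2 values of -1.64, -1.999 and -1.51 (limma adjusted p = 4.82e-07, 1.63e-08 and 7.96e-08), so all 3 steps fell. The span of Psph overlaps the more abundant gene Cct6a on the opposite strand.

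Serine is passed on to one-carbon units in mitochondria by Shmt2, Mthfd2 and Mthfd1l. Shmt2 had 94.1, 94.7 and 106 FPKM in heated CHIP-KO cells, against 104, 103 and 101 FPKM in unheated CHIP-KO cells. Heated WT libraries of Shmt2 were below every other library, with 44.9, 52.7 and 48.9 FPKM in heated WT cells, against 135, 130.4 and 119.9 FPKM in unheated WT cells. Mthfd2 had 27.2, 27.8 and 28.4 FPKM in heated CHIP-KO cells, against 28.04, 26.6 and 26.6 FPKM in unheated CHIP-KO cells. In WT libraries, Mthfd2 stood at 9.60, 10.8 and 9.87 FPKM in heated WT cells, against 37.1, 33.3 and 29.97 FPKM in unheated WT cells, and all 3 heated libraries were below all others. Mthfd1l, the formate-releasing enzyme, had 17.3, 18.4 and 18.7 FPKM in heated CHIP-KO cells, against 19.7, 19.02 and 18.9 FPKM in unheated CHIP-KO cells. WT libraries of Mthfd1l had 8.95, 9.56 and 9.56 FPKM in heated WT cells, against 28.98, 24.4 and 19.995 FPKM in unheated WT cells. The CHIP-KO groups overlapped for Shmt2 and Mthfd2, and heated CHIP-KO libraries of Mthfd1l were below unheated ones without a call (limma adjusted p = 0.629). The log2 changes in WT cells were -1.38, -1.63 and -1.28 (limma adjusted p = 8.61e-08, 3.05e-08 and 1.74e-06).

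Aldh18a1 opens proline synthesis from glutamate. Aldh18a1 had 36.3, 39.9 and 39.2 FPKM in heated CHIP-KO cells, against 42.6, 42.2 and 43.7 FPKM in unheated CHIP-KO cells. In WT libraries, Aldh18a1 had 16.03, 19.6 and 18.5 FPKM in heated WT cells, against 35.8, 37.8 and 34.4 FPKM in unheated WT cells, and the WT fall of 0.96 on the log2 scale passed the test (limma adjusted p = 1.06e-06). Heated CHIP-KO libraries of Aldh18a1 were below unheated ones without a call (limma adjusted p = 0.160). Pycr1, which closes proline synthesis, fell less, by 0.42 on the log2 scale in WT cells (limma adjusted p = 1.58e-04). Cth makes cysteine from cystathionine. Cth had 4.01, 4.53 and 4.21 FPKM in heated CHIP-KO cells, against 4.40, 4.10 and 4.40 FPKM in unheated CHIP-KO cells. WT libraries of Cth had 1.26, 1.38 and 1.53 FPKM in heated WT cells, against 4.32, 3.79 and 4.25 FPKM in unheated WT cells, and Cth fell by 1.10 on the log2 scale in WT cells (limma adjusted p = 3.11e-07). Pck2, the mitochondrial PEP carboxykinase, was the 1 enzyme not called in WT cells (log2 -0.22, limma adjusted p = 0.0657). Its heated WT libraries were still below the unheated ones. Pck2 was called there with the same summed FPKM in every library, with voom, and without unheated or heated WT replicate 2.

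**Figure D3:**
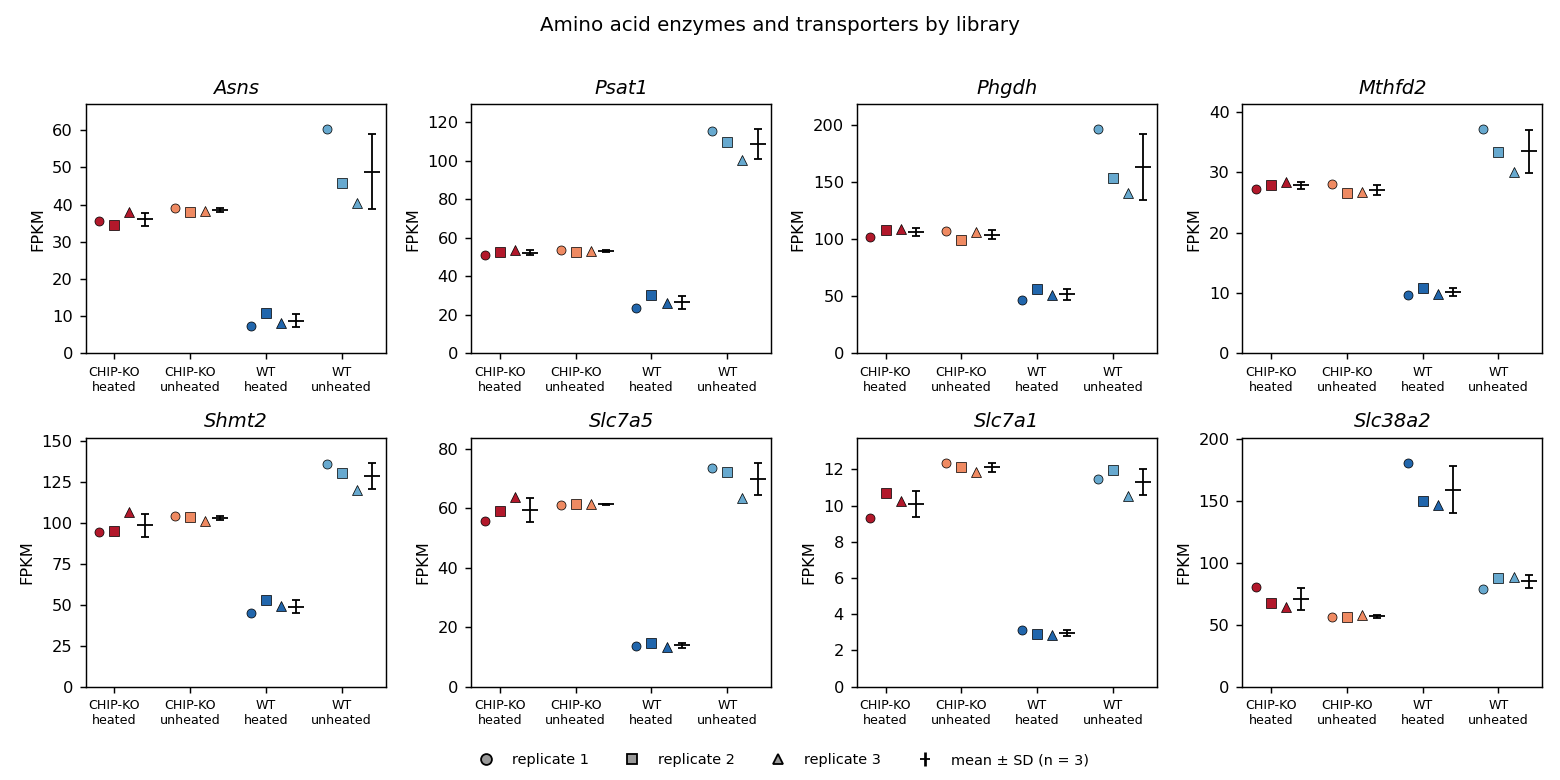
FPKM of 5 enzymes and 3 transporters in each library (points, shape by replicate) with mean ± SD of 3 libraries (black), by group on the x axis. Heated WT libraries are the lowest for 7 of the 8 genes, heated and unheated CHIP-KO libraries overlap for all but Slc7a1 and Slc38a2, and Slc38a2 is highest in heated WT libraries.

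The 5 transporters did not move together. Slc7a5, the light chain of the large neutral amino acid exchanger LAT1, had 55.8, 58.96 and 63.7 FPKM in heated CHIP-KO cells, against 61.2, 61.6 and 61.4 FPKM in unheated CHIP-KO cells. In WT cells, Slc7a5 stood at 13.8, 14.7 and 13.2 FPKM in heated WT cells, against 73.7, 72.3 and 63.6 FPKM in unheated WT cells. It fell 4.75-fold in WT cells (limma adjusted p = 2.52e-09) and the CHIP-KO groups overlapped. Its heavy chain Slc3a2 rose in CHIP-KO cells (log2 0.31, limma adjusted p = 0.00110), a call lost with the same summed FPKM in every library, and stood at a log2 change of 0.0083 in WT cells, with a 95% interval of -0.094 to 0.11. Mean levels of Slc3a2 were 77.3 ± 2.35 FPKM in heated and 62.03 ± 0.952 FPKM in unheated CHIP-KO cells, and 48.3 ± 1.20 FPKM in heated and 48.03 ± 2.02 FPKM in unheated WT cells (SD, n = 3 each). Per length, the light chain was below the heavy chain in both heated groups and above it in unheated WT cells, and in unheated CHIP-KO cells the means were close.

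Slc7a1, the cationic amino acid transporter CAT1, had 9.33, 10.7 and 10.3 FPKM in heated CHIP-KO cells, against 12.3, 12.2 and 11.8 FPKM in unheated CHIP-KO cells. In WT libraries, Slc7a1 had 3.14, 2.90 and 2.86 FPKM in heated WT cells, against 11.5, 11.95 and 10.5 FPKM in unheated WT cells. It fell in both genotypes, 1.18-fold in CHIP-KO cells (limma adjusted p = 0.0187) and 3.10-fold in WT cells (limma adjusted p = 1.18e-08). The CHIP-KO call of Slc7a1 was lost without unheated replicate 1 (limma adjusted p = 0.0686) or 2 (0.0621) or heated replicate 1 of CHIP-KO (0.0669), and without replicate 1 of every group (0.0744). Slc38a2, the neutral amino acid transporter SNAT2, went the other way. Slc38a2 had 80.8, 67.5 and 64.2 FPKM in heated CHIP-KO cells, against 56.1, 56.3 and 58.1 FPKM in unheated CHIP-KO cells. WT libraries of Slc38a2 had 181, 150.2 and 147 FPKM in heated WT cells, against 78.8, 87.997 and 88.2 FPKM in unheated WT cells. It rose 1.24-fold in CHIP-KO cells (limma adjusted p = 0.0477) and 1.86-fold in WT cells (limma adjusted p = 1.83e-05). The CHIP-KO call was lost without each of 9 libraries in turn or with the replicate number as a block, and the change turned to -0.028 with the same summed FPKM in every library. Slc1a5, the glutamine transporter ASCT2, was not called with heat in either genotype.

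All 9 tRNA synthetases of the set, which charge tRNAs with their amino acids in the cytosol, fell in heated WT cells, with log2 changes between -1.30 and -0.52. In heated CHIP-KO cells 0 of 9 were called (limma adjusted p at least 0.207), with changes between -0.11 and 0.091 and all 9 of the 95% intervals inside ±0.5. With the same summed FPKM in every library, all 9 were called lower in heated CHIP-KO cells too, where 62.6% of all tested genes were. The glycine enzyme Gars had 70.7, 75.4 and 80.01 FPKM in heated CHIP-KO cells, against 78.1, 78.7 and 77.4 FPKM in unheated CHIP-KO cells. In WT libraries, Gars stood at 31.9, 41.3 and 34.8 FPKM in heated WT cells, against 115, 82.9 and 75.3 FPKM in unheated WT cells. Nars, which charges asparagine, had 92.2, 91.7 and 93.6 FPKM in heated CHIP-KO cells, against 88.5, 86.5 and 85.2 FPKM in unheated CHIP-KO cells. WT libraries of Nars had 50.4, 55.6 and 54.8 FPKM in heated WT cells, against 126, 93.3 and 90.1 FPKM in unheated WT cells. In both genes unheated WT replicate 1 was the highest library, and every heated WT library was below every other library. Iars, the isoleucine enzyme, had 34.7, 34.97 and 36.9 FPKM in heated CHIP-KO cells, against 37.1, 38.1 and 38.7 FPKM in unheated CHIP-KO cells. In WT cells, Iars stood at 18.1, 19.7 and 19.6 FPKM in heated WT cells, against 48.2, 49.5 and 46.5 FPKM in unheated WT cells. In CHIP-KO cells the groups overlapped for Gars, heated libraries were above unheated ones for Nars and below them for Iars, and none of the 3 was called in the test described above. Iars was called lower there with library weights (limma adjusted p = 0.0184) and voom (0.0214), as was Wars with voom, and Nars was called higher without both WT replicates 1 (limma adjusted p = 0.0415). Yars overlaps C77080 on the opposite strand. The log2 changes in WT cells were -1.30, -0.91 and -1.29 (limma adjusted p = 1.41e-05, 2.34e-05 and 1.18e-08). The remaining 6, for alanine (Aars), serine (Sars), tryptophan (Wars), tyrosine (Yars), threonine (Tars) and glutamate with proline (Eprs), had heated WT levels from 51.5% (Tars) to 68.8% (Sars) of the unheated ones, and heated CHIP-KO levels from 92.1% (Wars) to 103.1% (Sars).

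**Figure D4:**
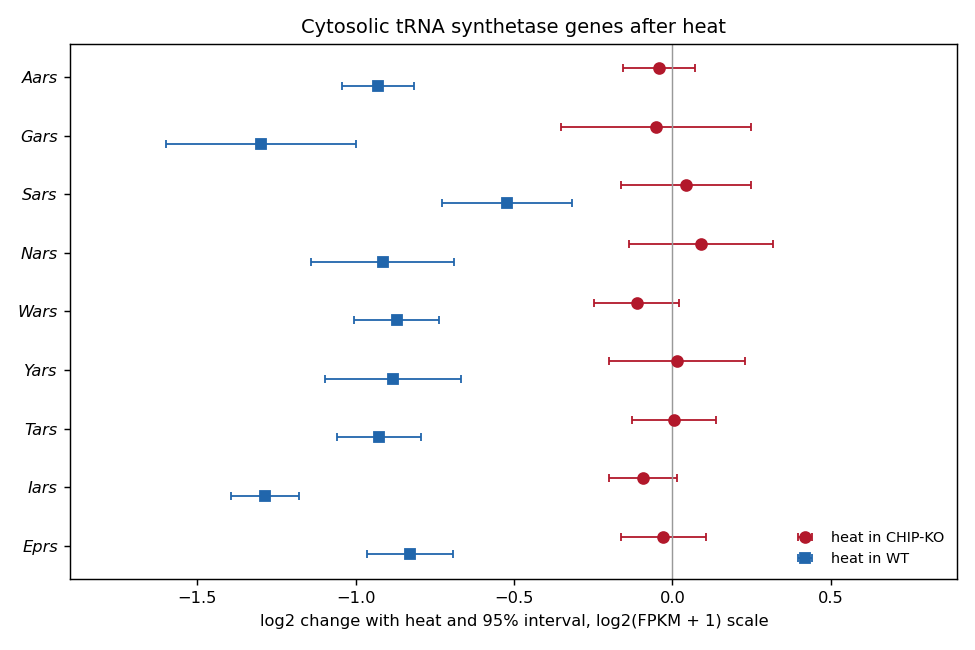
Log2 change with heat (points) and 95% interval from limma (bars), on the log2(FPKM + 1) scale, for 9 cytosolic tRNA synthetase genes in CHIP-KO cells (red circles) and WT cells (blue squares). The WT intervals lie below 0 and the CHIP-KO intervals include 0, on the deposited FPKM scale.

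The other genes of cytosolic tRNA charging, 11 further synthetases and 3 scaffold proteins of the multisynthetase complex, gave 1 fall and 0 rises among 14 in heated CHIP-KO cells, and 12 falls and 0 rises in heated WT cells. Their median log2 change was 0.089 in CHIP-KO cells and -0.56 in WT cells, where that of the 9 above was -0.028 and -0.91. Mars, for methionine, averaged 46.9 FPKM in heated and 48.5 FPKM in unheated CHIP-KO cells, against 29.8 FPKM in heated and 72.96 FPKM in unheated WT cells. Its WT change was -1.26 (SE 0.0689), and those of Cars, Vars and Lars, for cysteine, valine and leucine, were -1.18, -1.11 and -0.96. Ddit3 and Mars overlap on opposite strands. Of 16 tested mitochondrial tRNA synthetases, 2 fell and 1 rose in heated CHIP-KO cells. In heated WT cells 11 of these 16 fell and 2 rose, and the medians were -0.049 in CHIP-KO and -0.38 in WT cells. The shares over all tested genes were 11.4% falling and 8.65% rising in CHIP-KO cells, and 30.5% and 28.1% in WT cells.

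Upstream of ATF4 lie the 14 genes of the eIF2 kinases with their regulators, eIF2 and its exchange factor eIF2B. They gave 2 falls and 3 rises in heated CHIP-KO cells, against 10 falls and 2 rises in heated WT cells. Over all tested genes, 11.4% fell and 8.65% rose in heated CHIP-KO cells, and 30.5% fell and 28.1% rose in heated WT cells. Eif2s2, the beta subunit of eIF2, had the largest WT change at -0.75 (SE 0.0618), followed by Eif2s3x at -0.56, Eif2s1 at -0.55 and the amino acid sensing kinase gene Eif2ak4 at -0.51. Of 18 tested further ATF4 targets, 4 fell and 1 rose in heated CHIP-KO cells, and 10 fell and 6 rose in heated WT cells. In WT cells the branched-chain aminotransferase gene Bcat1 changed by -1.24 and the tRNA export factor gene Xpot by -0.999. The secreted factors Gdf15 and Vegfa rose there by 2.31 and 1.13. Gdf15 averaged 6.49 FPKM in heated and 0.265 FPKM in unheated WT cells.

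The interaction term compared the heat changes of both genotypes in 1 test. It was positive, a change less negative or more positive in CHIP-KO cells, for 26 of the 37 genes and negative for 4, where 17.9% of all tested genes were positive, 17.3% negative and 35.2% either. The median over the 37 genes was 0.89 and that over all tested genes -0.0029. With the same summed FPKM in every library, 25 were positive and 4 negative. Positive interactions covered 10 of 11 enzymes, 9 of 9 tRNA synthetases, 3 of 5 transporters, 3 of 6 transcription factors and 1 of 6 tested feedback regulators. Asns had the largest interaction, 2.26 (SE 0.20, limma adjusted p = 1.29e-05), and Slc7a5 the second at 2.20 (SE 0.10, limma adjusted p = 1.67e-07). Among tRNA synthetases the interaction ran from 0.56 for Sars to 1.25 for Gars. The 4 negative ones were Ddit3, Ppp1r15a, Ddit4 and Slc38a2, all of which rose with heat in WT cells. For Ddit3 (-0.75, limma adjusted p = 0.0353) the call was lost in 8 of the 12 fits that left out 1 library, and for Ddit4 (-0.27, limma adjusted p = 0.0260) in 4. For the enzyme Pycr1 (0.27, limma adjusted p = 0.0340) it was lost in 8, and also with voom, without the filter and with 2 other scalings. For Chac1 the interaction of 1.62 was not called (limma adjusted p = 0.107), and without both WT replicates 1 it was 2.34 (limma adjusted p = 0.00723). Outside the 37 genes, the 18 tested further ATF4 targets gave 7 positive and 3 negative interactions, at a median of 0.062. The 14 other genes of cytosolic tRNA charging gave 13 positive and 0 negative ones, at a median of 0.60.

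Genotypes were then compared at each treatment. After heat, CHIP-KO cells had higher levels than WT cells for 27 of the 37 genes and lower levels for 4, where 23.3% of all tested genes were higher, 19.1% lower and 42.4% either. Without heat, 7 were higher and 16 lower in CHIP-KO cells, where 23.9% of all tested genes were higher and 24.5% lower. The median difference of the 37 genes was 0.76 with heat and -0.19 without, and that of all tested genes 0.013 and -0.012. Without unheated WT replicate 1, 2 or 3, the unheated median of the 37 genes was -0.078, -0.25 or -0.28. After heat, 10 of 11 enzymes and 9 of 9 tRNA synthetases were higher and 0 of either lower. Slc7a5 was 4.05-fold, Asns 3.84-fold and Trib3 3.39-fold higher (limma adjusted p = 2.43e-09, 1.10e-06 and 2.16e-06). The 4 lower genes were Sesn2, Ppp1r15b, Ddit4 and Slc38a2, with Slc38a2 at -1.16 (limma adjusted p = 3.32e-06) and Ddit4 at -1.12 (limma adjusted p = 6.74e-08). The groups overlapped for Ppp1r15b, and its call was lost without heated WT replicate 1 or heated CHIP-KO replicate 2 or 3. The higher level of Chac1 was not called without heated CHIP-KO replicate 1 or heated WT replicate 2 or 3.

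Without heat, 23 of the 37 genes passed the test, where 48.5% of all tested genes did. After heat 31 passed it, where 42.4% of all tested genes did. In unheated CHIP-KO cells 6 of 11 enzymes and 5 of 9 tRNA synthetases were lower than in unheated WT cells, and 2 enzymes and 0 tRNA synthetases were higher. Of the fits that left out 1 library, 4 of 12 lost the lower call of Mthfd1l and 7 of 12 that of Slc7a5, unheated WT replicate 1 among them for both. Psat1 differed most, at 53.1 ± 0.660 FPKM in unheated CHIP-KO cells and 109 ± 7.75 FPKM in unheated WT cells (SD, n = 3 each, log2 -1.02, limma adjusted p = 1.53e-06). Phgdh followed at a log2 difference of -0.63 (limma adjusted p = 5.81e-04), and Asns missed the threshold at -0.32 (limma adjusted p = 0.0862). The proline genes Pycr1 and Aldh18a1 were higher in unheated CHIP-KO cells, at 0.54 and 0.25 (limma adjusted p = 3.07e-05 and 0.0138). Ddit3, Atf5 and Ppp1r15a were higher as well, 1.74-fold, 1.55-fold and 1.62-fold, as were the transporters Slc3a2 and Slc1a5. Atf4 and Ddit4 were lower, at -0.25 (limma adjusted p = 0.00683) and -0.85 (limma adjusted p = 4.57e-07). Of the 18 tested further ATF4 targets, 9 were higher and 3 lower in unheated CHIP-KO cells, at a median difference of 0.32. Of all tested genes, 23.9% were higher and 24.5% lower there.

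**Figure D5:**
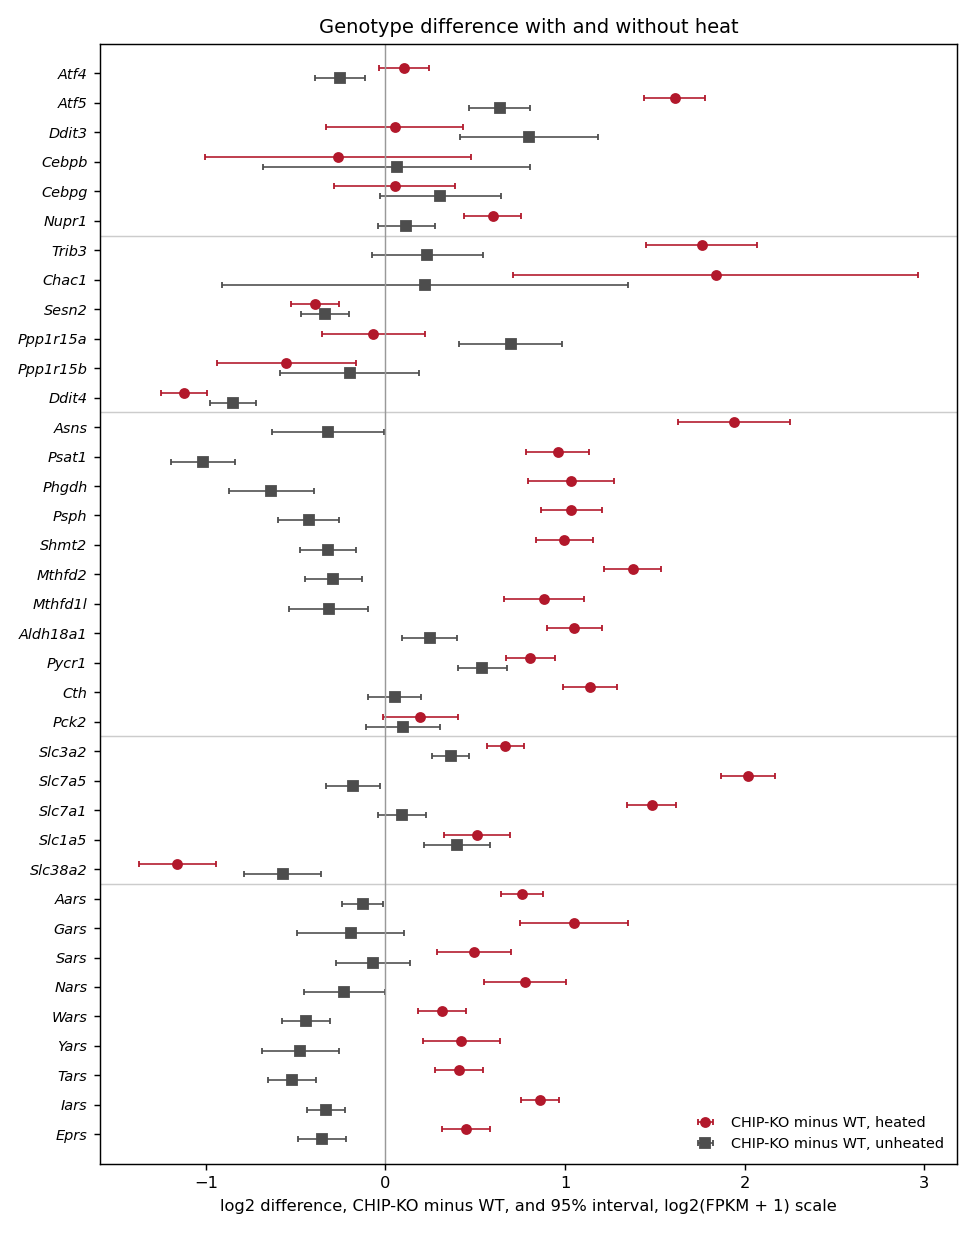
Log2 difference between CHIP-KO and WT cells (points) with 95% intervals from limma (bars), on the log2(FPKM + 1) scale, for the 37 tested genes after heat (red circles) and without heat (grey squares), with lines between gene roles. After heat, enzymes and tRNA synthetases lie right of 0, and without heat most lie at or left of it.

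Set against unheated WT cells, which have the highest levels of most enzymes, the median enzyme stood at 73.2%, 75.3% and 82.7% of the unheated WT mean in heated CHIP-KO libraries of replicates 1, 2 and 3. The same median was 80.7%, 79.3% and 78.7% in unheated CHIP-KO and 30.6%, 34.6% and 37.1% in heated WT libraries. For the 9 tRNA synthetases the median was 74.2%, 75.4% and 77.3% in heated CHIP-KO, 77.9%, 79.2% and 80.5% in unheated CHIP-KO, and 49.1%, 55.1% and 51.6% in heated WT libraries. Every CHIP-KO library was thus above every heated WT library and, in both medians, below every unheated WT library, which lay between 92.3% and 108.6%. These medians describe the libraries and carry no test.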

How the data were processed

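RNA of 12 MEF libraries (poly(A) capture, 3 per group) was measured. The deposited table gives FPKM values, made by the authors; HISAT2 is the aligner that the submitters' processing notes name. No counting tool, annotation or strand setting is stated there. In each library 100% of values above 0, times the gene's length, were whole multiples of the smallest such product (tolerance 0.01). That product was taken as 1 fragment, which gave the fragments per library. Summed fragments were above the library total that the FPKM values imply in the 3 heated CHIP-KO libraries (26954112 against 25542019 in replicate 1). They were below it in the others. Genes with at least 1 FPKM in at least 3 libraries were fitted with limma 3.58.1 in R 4.3.3 on log2(FPKM + 1), with trend, 4 group means and 5 contrasts. Libraries were grouped by title. Genes described by library were Atf4, Atf5, Ddit3, Trib3 and any called at a log2 change of at least 1. The genes, lists and tests were chosen with earlier results of these data known. The steps were run on simulated data drawn from the unheated WT means, in which a small set of genes changed. Those data held no shift in scale with heat and no deviating replicate, so they do not test calls that depend on either. Alternatives were another pseudocount, other filters and scalings, voom, weights per library, a block for replicate number, and left-out libraries; leaving out replicate 1 of every group was added after the data were seen. Figures used matplotlib 3.10.9. Not every promoter site found is reported here.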

Additional observations from a re-analysis of the deposited data

Results flagged for a closer look

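The genes below were picked out because their change with heat differed between genotypes by the interaction term, called by limma at an adjusted p under 0.05. Values are log2 changes in CHIP-KO minus those in WT cells. Among transcription factors the values were 0.35 for Atf4, 0.97 for Atf5, -0.75 for Ddit3 and 0.48 for Nupr1. Among feedback regulators they were 1.53 for Trib3, -0.76 for Ppp1r15a and -0.27 for Ddit4. The enzymes gave 2.26 for Asns, 1.97 for Psat1, 1.67 for Phgdh, 1.46 for Psph, 1.32 for Shmt2, 1.67 for Mthfd2, 1.20 for Mthfd1l, 0.81 for Aldh18a1, 0.27 for Pycr1 and 1.09 for Cth. The transporters gave 0.31 for Slc3a2, 2.20 for Slc7a5, 1.39 for Slc7a1 and -0.59 for Slc38a2. The tRNA synthetases gave 0.89 for Aars, 1.25 for Gars, 0.56 for Sars, 1.01 for Nars, 0.76 for Wars, 0.90 for Yars, 0.93 for Tars, 1.19 for Iars and 0.80 for Eprs. The calls of Ddit3 and Pycr1 were each lost in 8 of the 12 fits that left out 1 library, and that of Ddit4 in 4. The causes of these differences were not tested.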

How the results depend on the processing

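The counts of called genes stayed within 1.5 times the reported ones under every alternative run for heat in WT, for both genotype comparisons and for the interaction. For heat in CHIP-KO the count of 11 became 29 with an equal sum per library, which lowers all heated libraries. Of all tested genes, 62.6% were called lower under it. The count lay between 6 and 11 in the fits that left out 1 library. In such fits the count lay between 28 and 31 for heat in WT, 30 and 31 for the genotypes after heat, 21 and 25 for the genotypes without heat, and 27 and 30 for the interaction. With an equal sum per library, Atf4 turned to -0.17 with heat in WT cells, and Phgdh to -0.30, Mthfd2 to -0.29, Nars to -0.24 and Slc38a2 to -0.028 with heat in CHIP-KO cells. Chac1 turned to -0.28 with heat in CHIP-KO cells without replicate 1 of every group. Same-numbered libraries shared only a number by the labels: their deviations from the group means correlated at 0.33, 0.021 and 0.23 between the heated groups and at -0.12 to 0.022 between the other groups. With the replicate number as a block the counts were 9 for heat in CHIP-KO, 30 for heat in WT, 31 for the genotypes after heat, 23 without heat and 30 for the interaction. The narrower promoter element left 8 of 12 genes. Depth limits Stc2, which had 5 to 41 fragments per library. Vldlr had 38 to 269 fragments per library and was left out by the filter of 1 FPKM in at least 3 libraries.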

Other observations

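Among mitochondrial tRNA synthetase genes, Lars2 had the largest change with heat in both genotypes, a rise. It averaged 97.03 FPKM in heated and 14.4 FPKM in unheated CHIP-KO cells, and 91.4 FPKM in heated and 17.4 FPKM in unheated WT cells. It rose 6.25-fold in CHIP-KO cells (limma adjusted p = 3.17e-05) and 5.03-fold in WT cells (limma adjusted p = 6.16e-06). The median log2 change of the 16 tested mitochondrial genes was -0.049 in CHIP-KO and -0.38 in WT cells. Whether all reads counted for Lars2 come from its transcript was not tested. Pars2 fell in both genotypes, by 0.999 on the log2 scale in CHIP-KO cells and by 1.17 in WT cells.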
